A study of Mus musculus with 2 samples.

Results

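The genes Tet1, Tet2, Tet3, Dnmt1, Dnmt3a, Dnmt3b and Uhrf1, which write, copy and remove the methyl mark on cytosine, were examined in RNA that came down with chromatin in enChIP. They were taken by exact gene symbol, as 7 of the 24117 symbols and 27 of the 48876 transcripts on which reads were counted. enChIP isolates chromatin through a tagged DNA-binding protein, and enChIP-RNA-Seq sequences the RNA purified with it. The cells were Ba/F3, a mouse hematopoietic cell line that the labels give as strain C3H. In one group they stably expressed 3xFN-Tel-TAL, a TAL protein that recognizes telomeric repeats and carries a 3xFLAG-tag and a nuclear localization signal. In the other they expressed 3xFNLDD, a 3xFLAG-tagged LexA protein, as negative control. Both isolates were prepared from formaldehyde-fixed, sonicated chromatin with the anti-FLAG M2 antibody, and the labels give 60 ng of RNA for each library. Whether a line was a single clone is not given in the sources used here.

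There was 1 library per group, so no difference has a replicate check and no p-value is given. The totals were 7206183 reads (3xFNLDD) and 9774844 reads (3xFN-Tel-TAL), and 11 transcripts held 84.8% and 81.1% of them. RPM is the read count scaled to a library total of 1000000 reads, and the log2 ratio compares RPM of 3xFN-Tel-TAL with that of 3xFNLDD. Ranges in parentheses after a ratio are exact 95% Clopper-Pearson intervals, or conditional intervals for differences between ratios. They compare these libraries, not the conditions, and cover counting error only, since amplified reads lacking molecular identifiers are not separate molecules. RNA from before the immunoprecipitation was not analysed here, so more of an RNA in the cells and more of it in the isolate cannot be told apart, nor can fewer cells with an RNA and less RNA per cell. Of 10 markers of Ba/F3 and related progenitors, 9 had a read in the control library and 8 in the other, 204.8 and 223.5 RPM in sum, most of it from the cytokine receptor genes Csf2rb and Csf2rb2. The pre-B cell markers Vpreb1, Igll1 and Cd79b had 0 to 4 reads per library, and Spi1 is not listed. Markers of other cell types, 10 genes, summed to 70 reads (9.71 RPM) in the control and 29 reads (2.97 RPM) in the telomere library, with Alb, Epcam and Hbb-bt at 0, and their part in the results was not tested. The telomerase RNA Terc had 292 and 679 reads and a ratio of 0.78 (0.58 to 0.98) on the log2 scale. It exceeded the ratio of 78.6% of the genes with 100 or more reads over both libraries.

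DNA methylation in mammals is set mainly on cytosines that precede a guanine. Dnmt3a and Dnmt3b place the mark on unmethylated DNA, whereas Dnmt1 copies it to the new strand after replication, guided by Uhrf1, which binds hemimethylated sites. The Tet enzymes oxidize methylcytosine, which opens a way to its removal. In blood cells, Tet2 and Dnmt3a are known as regulators of stem cell self-renewal that are often mutated in myeloid malignancies.

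Reads of all 7 genes were found in both libraries, and their ratios lay around the median of all genes. Together they amounted to 987 reads (137.0 RPM) in the control and 1709 reads (174.8 RPM) in the telomere library, 0.35 (0.24 to 0.47) on the log2 scale. The median log2 ratio of the 5933 genes with 100 or more reads over both libraries was 0.41. Of the 7 members, 6 passed this minimum and Tet1, with 71 reads, did not. The ratio of RPM exceeded 1.4 for 2 of the 6 members, Uhrf1 and Dnmt3b, where 42.8% of all genes did so. The study set this limit for enriched non-coding RNAs and describes it as a ratio of read counts, which is not scaled to the unequal library totals. By that ratio, tried after the data were seen, 5 of the 6 members exceeded 1.4, all but Tet2, and so did 78.5% of all genes. The ratio of RPM was under 1/1.4 for 0 of the 6 and for 5.83% of all genes. The lower end of its interval exceeded 1.4 for 0 of the 6, with 14.8% among all genes. For each of the 7 the interval held the median of all genes, as for 62% of the 5933, and for 0 it lay below, as for 20.2%.

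The trimmed mean of M values (TMM) in edgeR gives the most abundant RNAs less influence on the scaling, and it moved every log2 ratio by -0.37. Under it 0 of the 6 members exceeded 1.4 and 0 were under 1/1.4, against 17.6% and 14.4% of all genes. Terc, at a log2 ratio of 0.41 with TMM, did not exceed 1.4-fold either. Since the shift is the same for every gene, the place of a member relative to the median of all genes does not depend on it.

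**Figure D1:**
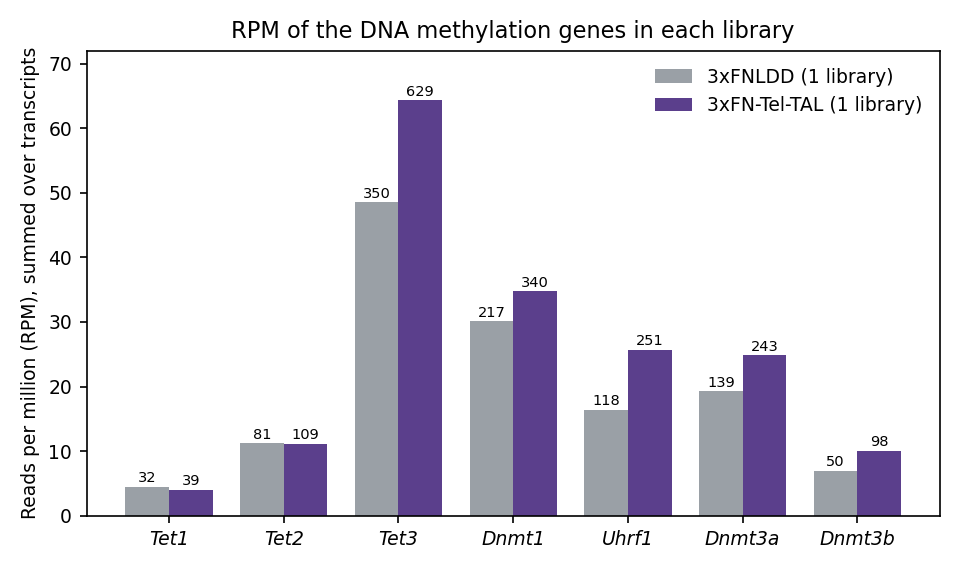
RPM of each member, summed over its transcripts, in the 3xFNLDD library (grey) and the 3xFN-Tel-TAL library (purple), 1 library each, with the read count above each bar. Tet3 had the highest RPM of the 7 genes in both libraries, and the bars of Tet2 are nearly level at 11.2 RPM.

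The Tet dioxygenases were led by Tet3 (ENSMUSG00000034832, chr6:83312367-83391672, reverse strand of NCBIM37), with 350 reads (48.6 RPM) in the control and 629 reads (64.3 RPM) in the telomere library. Its log2 ratio, 0.41 (0.22 to 0.60), differed by -0.0059 from the median of all genes. Tet2 (ENSMUSG00000040943, chr3:133126643-133207354, reverse strand) gave 81 reads (11.2 RPM) and 109 reads (11.2 RPM), so that its level was nearly equal, -0.012 (-0.44 to 0.42). This ratio exceeded that of 18.5% of the genes with 100 or more reads, and the upper end of its interval was 0.0098 above their median. For Tet1 (ENSMUSG00000047146, chr10:62267318-62361866, reverse strand), which is best known from embryonic stem cells, 32 reads (4.44 RPM) and 39 reads (3.99 RPM) were counted. At a log2 ratio of -0.15 (-0.87 to 0.57), a difference of Tet1 was not detectable at this depth.

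Among the maintenance genes, Dnmt1 (ENSMUSG00000004099, chr9:20711650-20757317, reverse strand) was counted at 217 reads (30.1 RPM) in the control and 340 reads (34.8 RPM) in the telomere library. Its log2 ratio was 0.21 (-0.042 to 0.46), with an interval that held 0. Uhrf1 (ENSMUSG00000001228, chr17:56442744-56462909, forward strand) was counted at 118 reads (16.4 RPM) and 251 reads (25.7 RPM), and its log2 ratio of 0.65 (0.33 to 0.98) was the highest of the 7. It exceeded the ratio of 70.9% of the genes with 100 or more reads. Uhrf1 and Dnmt1, which act together at the replication fork, thus had point values on opposite sides of the median of all genes, and Uhrf1 was higher by 0.44 (0.028 to 0.86). The intervals of both genes held that median. Adjusted for the 21 pairs of members, the interval of the difference held 0 (-0.19 to 1.08).

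Among the de novo methyltransferases, Dnmt3a (ENSMUSG00000020661, chr12:3806007-3914443, forward strand) had 139 reads (19.3 RPM) in the control library, 243 reads (24.9 RPM) in the telomere library and a log2 ratio of 0.37 (0.059 to 0.68). For Dnmt3b (ENSMUSG00000027478, chr2:153475186-153513466, forward strand), 50 reads (6.94 RPM) and 98 reads (10.03 RPM) gave 0.53 (0.025 to 1.05). With TMM the log2 ratio of Dnmt3a became -0.0028 and that of Dnmt1 -0.16, so that both changed sign with the scaling. Without TMM, the lower end of the interval was above 0 for Tet3, Uhrf1, Dnmt3a and Dnmt3b, 4 of the 7, and for 50.6% of the 5933 genes.

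**Figure D2:**
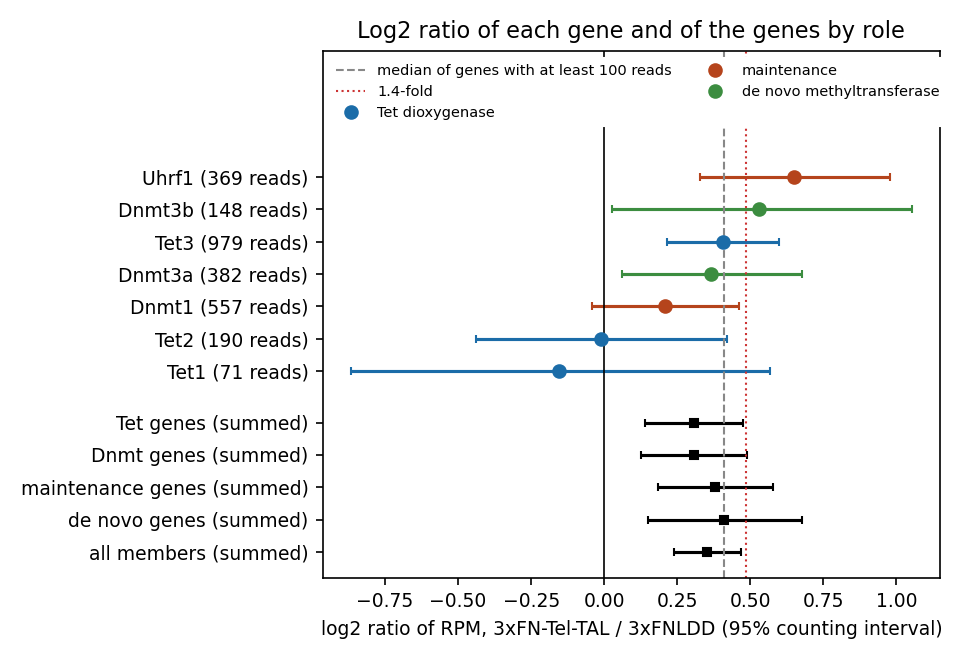
Log2 ratio of RPM (x axis) for each member, coloured by role, and for the reads summed by role (squares), with 95% counting intervals. The dashed line is the median of the 5933 genes, 0.41, which lies within the interval of each of the 7 genes, and the dotted line marks 1.4-fold.

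The enzymes that remove the mark and those that add it had similar ratios. The summed reads of the 3 Tet genes were at 0.31 (0.14 to 0.48) and those of the 3 Dnmt genes at 0.31 (0.13 to 0.49) on the log2 scale. The difference, Tet minus Dnmt, was 0.00073 (-0.25 to 0.25). Tet3 supplied most of the Tet reads, and without Tet3 the difference was -0.36 (-0.76 to 0.054). Maintenance genes (Dnmt1 and Uhrf1) were at 0.38 (0.18 to 0.58) and de novo genes at 0.41 (0.15 to 0.68), a difference of -0.032 (-0.36 to 0.30). When the most-read transcript of each gene replaced the sum, that difference became -0.50 (-0.93 to -0.077), through a Dnmt3a transcript described below. Among the 21 pairs of members, the 95% interval of the difference left out 0 for 3, all with Uhrf1 as the higher gene: 0.44 (0.028 to 0.86) over Dnmt1, 0.66 (0.11 to 1.20) over Tet2 and 0.80 (0.0045 to 1.59) over Tet1. With intervals adjusted for 21 pairs (99.8%) this held for 0 pairs.

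**Figure D3:**
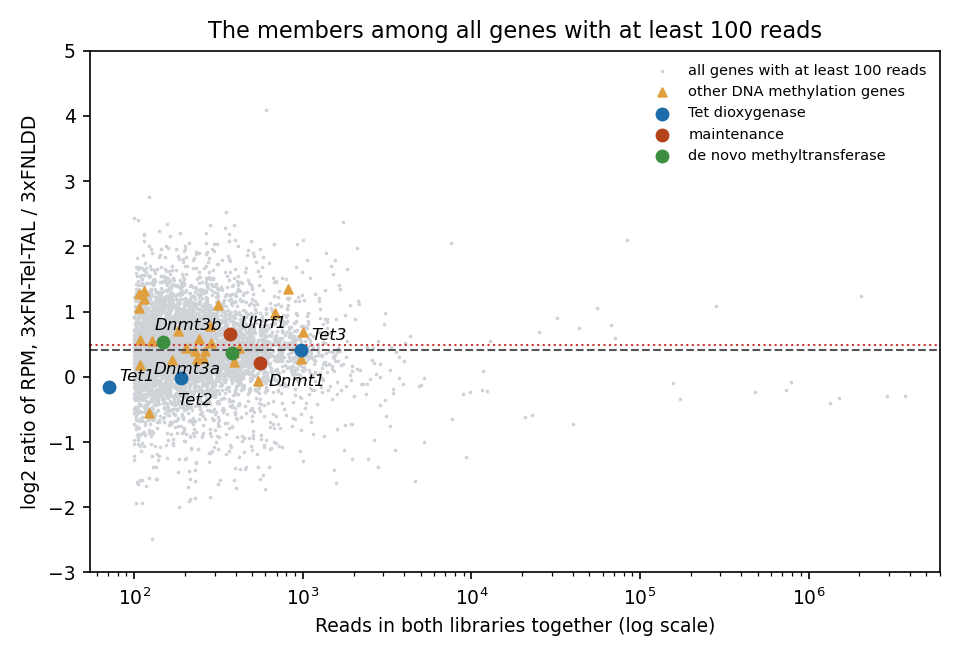
Log2 ratio of RPM (y axis) against the reads in both libraries together (x axis, log scale) for the 5933 genes (grey), the other DNA methylation genes with 100 or more reads (triangles) and the 7 members (coloured by role). The 6 members with 100 or more reads lie within the grey cloud, from -0.012 for Tet2 to 0.65 for Uhrf1, on either side of the dashed median of all genes, Tet1 with 71 reads lies left of the cloud, and the dotted line marks 1.4-fold.

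Levels can be compared between genes only per length, and their order depended on which transcripts were used. RPKM, which is RPM divided by the annotated length in kilobases, was taken for the most-read transcript of each gene, with exact 95% Poisson intervals for counting error, and also summed over the annotated transcripts of a gene. By the most-read transcript, in the control library Dnmt1, at 4.75 (4.08 to 5.49) RPKM, and Uhrf1, at 4.26 (3.50 to 5.13) RPKM, were highest, and their intervals overlap. Tet3 followed at 2.56 (2.22 to 2.94) RPKM, apart from its neighbours on both sides. Dnmt3b, at 1.38 (1.0001 to 1.86) RPKM, and Tet2, at 1.22 (0.972 to 1.52) RPKM, overlapped. Lowest were Dnmt3a, at 0.659 (0.483 to 0.879) RPKM, and Tet1, at 0.288 (0.193 to 0.413) RPKM. In the telomere library Uhrf1, at 6.39 (5.58 to 7.28) RPKM, and Dnmt1, at 5.31 (4.69 to 5.97) RPKM, were again highest and overlapped, followed by Tet3 at 3.56 (3.21 to 3.93) RPKM and Dnmt3b at 2.11 (1.69 to 2.59) RPKM. Dnmt3a, at 1.34 (1.12 to 1.60) RPKM, then overlapped with Tet2, at 1.21 (0.998 to 1.47) RPKM, and Tet1 was lowest at 0.234 (0.16 to 0.33) RPKM. Summed over transcripts, the order was another one, since the RPKM of short transcripts counts in full and the most-read transcript held only part of the reads of Dnmt3a and Tet3. In the control library Dnmt3a was then highest at 11.8 RPKM and Tet3 next at 10.8 RPKM, above Uhrf1 at 6.33 and Dnmt1 at 4.75 RPKM, with Dnmt3b at 2.41, Tet2 at 1.22 and Tet1 at 0.317 RPKM. In the telomere library the sums were 13.7 RPKM for Tet3, 12.4 for Dnmt3a, 11.1 for Uhrf1, 5.31 for Dnmt1, 3.06 for Dnmt3b, 1.21 for Tet2 and 0.406 for Tet1. The value of Dnmt1 holds ENSMUST00000004202 alone. Its 2 other transcripts, with 37 reads in the control and 67 in the telomere library, have no annotated length. Under both measures Tet1 was lowest and Dnmt1 was above Dnmt3b and Tet2. The places of Dnmt3a and Tet3, and so those of Uhrf1 and Dnmt1 relative to them, are not settled by these data.

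The read counts deposited for the transcripts of Dnmt3a differed in their ratios. How reads matching several transcripts of a gene were divided is not given in the sources used here, and the shares and differences between transcripts that follow depend on it. ENSMUST00000020991, a protein-coding transcript of 23 exons (chr12:3807030-3914443), of whose 9685 nt 7999 are in no other listed Dnmt3a transcript, was counted at 46 and 127 reads. Its log2 ratio was 1.03 (0.53 to 1.54), whereas the other 7 Dnmt3a transcripts together, at 93 and 116 reads, gave -0.12 (-0.53 to 0.29). The share of the 23-exon transcript in the reads of the gene was 33.1% (25.4% to 41.6%) in the control and 52.3% (45.8% to 58.7%) in the telomere library. It differed from the other transcripts by 1.15 (0.49 to 1.81) on the log2 scale, a value that does not depend on the scaling of the libraries. Such a comparison was possible for 10 transcripts of 4 members with 20 or more reads on the transcript and on the rest of the gene, and the interval left out 0 for 2 of the 10, both of Dnmt3a. Comparisons within a gene share reads, so these 2 are not separate results. The shares of all genes given below count each gene once, unlike these 10. With intervals adjusted for 10 comparisons (99.5%), that of the 23-exon transcript was (0.23 to 2.09) and still above 0, and that of the other, ENSMUST00000173700, was (-2.16 to 0.20). Among 3014 genes compared in this way by their most-read transcript, the 95% interval left out 0 for 21.4%, lay above 0 for 9.65%, and the difference exceeded 1 for 9.19%.

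Sequences at the ends of 2 coding exons of Dnmt3a show how the retained-intron transcripts part from the 23-exon one. Each line has the last 30 bases of an exon in lower case and the bases that follow it in the transcript in capitals. The annotated ENSMUST00000173700 runs on past exon 2 of the 23-exon transcript (chr12:3835231-3835290, NCBIM37, forward strand) into 3554 of the 14374 intron bases, and ENSMUST00000085826 runs on past exon 4 (chr12:3866223-3866282, forward strand) into 1232 of 6582. In the read-through lines the capitals begin with the GT of a splice donor, and in the spliced lines with the next exon.
Exon 2 read through in ENSMUST00000173700: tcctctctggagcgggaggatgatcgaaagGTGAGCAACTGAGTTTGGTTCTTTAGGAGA
Exon 2 spliced in ENSMUST00000020991: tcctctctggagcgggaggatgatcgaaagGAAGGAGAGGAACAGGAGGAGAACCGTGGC
Exon 4 read through in ENSMUST00000085826: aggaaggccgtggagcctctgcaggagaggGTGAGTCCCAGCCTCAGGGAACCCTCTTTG
Exon 4 spliced in ENSMUST00000020991: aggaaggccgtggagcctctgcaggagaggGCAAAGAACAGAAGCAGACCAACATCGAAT

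The retained-intron transcript ENSMUST00000173700 (4014 nt) had 32 reads in each library, -0.44 (-1.19 to 0.31) on the log2 scale, and ENSMUST00000085826 (1944 nt) at 19 and 23 reads, -0.16 (-1.11 to 0.79). A short coding model of 654 nt, ENSMUST00000173197, was counted at 12 and 10 reads, -0.70 (-2.07 to 0.63). The intervals of these 3 transcripts are wide and each held 0. ENSMUST00000172879, a coding model of 732 nt of which 598 are in no other listed transcript, was counted at 27 and 47 reads, 0.36 (-0.35 to 1.10), close to the gene as a whole. All 3 retained-intron transcripts of Dnmt3a, summed after their values were seen, had 52 and 55 reads, -0.36 (-0.93 to 0.22), and the 23-exon transcript was above this sum by 1.38 (0.61 to 2.16). That difference uses reads of the comparison with all other transcripts and its interval is not adjusted, so it is not a separate result. The 23-exon transcript had the highest ratio of the Dnmt3a transcripts with 20 or more reads. The 2 retained-intron transcripts of Uhrf1 had 6 and 21 reads in sum. Their log2 ratios were 1.26 (-0.43 to 3.33) and 1.56 (-0.76 to 4.83), each from fewer than 20 reads and with an interval that held 0. Those of Dnmt3b had 4 and 6 reads in sum.

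**Figure D4:**
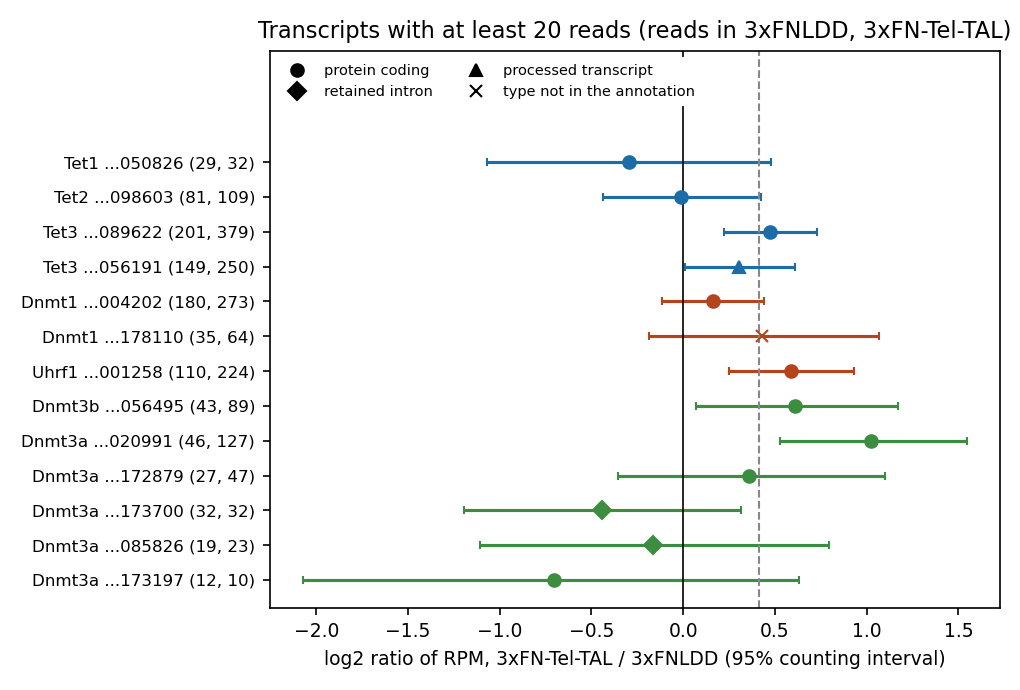
Log2 ratio of RPM (x axis) with 95% counting intervals for the 13 member transcripts with 20 or more reads, labelled by gene, the end of the Ensembl ID and the reads in 3xFNLDD and 3xFN-Tel-TAL, with the annotated type as symbol. ENSMUST00000020991 of Dnmt3a stands at 1.03, right of the dashed median of all genes, and the retained-intron Dnmt3a transcripts (diamonds) stand at -0.44 and -0.16.

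For the other members no transcript compared in this way had an interval that left out 0. The coding Tet3 transcript ENSMUST00000089622, with 11 exons, was counted at 201 and 379 reads, 0.48 (0.22 to 0.73), and the processed transcript ENSMUST00000056191 at 149 and 250 reads, 0.31 (0.0084 to 0.61), a difference of 0.17 (-0.23 to 0.56). They share an exon of 2158 bases, and only 182 of the 2523 nt of the processed transcript are outside the other one, so the division of reads between them is uncertain. The most-read Dnmt1 transcript, ENSMUST00000004202, was at 180 and 273 reads, 0.16 (-0.12 to 0.44), and ENSMUST00000178110, which the annotation used here does not include, at 35 and 64 reads, 0.43 (-0.19 to 1.07). One transcript, ENSMUST00000001258, held 93.2% of the Uhrf1 reads in the control and 89.2% in the telomere library, and ENSMUST00000056495 held 86.0% and 90.8% of those of Dnmt3b. Tet2 was listed with 1 transcript. Across the members, 7 transcripts had 100 or more reads, and 3 of them, 1 each of Dnmt3a, Dnmt3b and Uhrf1, exceeded 1.4-fold, where 43.7% of all transcripts of this depth did. Of the 27 transcripts, 14 had fewer than 20 reads, and 5 had no read in one of the libraries and 1 to 4 in the other.

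The loci of the members hold no tandem telomeric repeat. Neither TTAGGG nor CCCTAA occurs 2 or more times in a row in the spans of the 7 genes in NCBIM37, from 20166 bases for Uhrf1 to 108437 bases for Dnmt3a. Of all genome stretches as long as Uhrf1, 0.883% hold such a repeat, and of those as long as Dnmt3a, 4.48%, with the lengths of the other members in between. In the annotation used here, genes on the opposite strand with reads overlapped 2 members. Gm10485 within Dnmt3a was counted at 9 and 14 reads and 7530422B04Rik at the start of Dnmt3b at 7 and 7. The library kit did not mark strand, so reads in these overlaps cannot be told apart. The study also lists, among its telomere-enriched long non-coding RNAs, a reverse-strand region on the chromosome of Tet3. By its position this region overlaps part of Tet3 on the same strand. It was not counted here, and its part in the Tet3 value was not tested.

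The gene nearest to each member in the log2 RPM of both libraries was sought for the 6 with 100 or more reads, a likeness over only 2 libraries. For Dnmt1 it was Ehmt2, a histone methyltransferase gene, with 216 and 343 reads. Cep152 was nearest to Dnmt3b and had the same 50 and 98 reads. The others were Nipal3 for Tet2, Bmp2k for Tet3, Ino80d for Uhrf1 and Dhx37 for Dnmt3a, at Euclidean distances from 0.010 to 0.026 on the log2 scale.

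Of 54 other genes of the DNA methylation pathway, grouped by role, 28 had 100 or more reads. Among these 28, 14 exceeded 1.4-fold and 1 was under 1/1.4-fold, with a median log2 ratio of 0.48, and with TMM 7 exceeded 1.4-fold. Over all genes these shares were 42.8% above and 5.83% below by library totals, and 17.6% above with TMM, beside which the short lists that follow are to be read. For the partners of the methyltransferases, with which the members act, 1 of 10 exceeded 1.4-fold and the median was 0.28, where 42.8% of all genes exceeded 1.4-fold. This gene was Cdca7, which acts with the remodeler Hells, at 80 and 163 reads and 0.59 (0.19 to 0.99) on the log2 scale. Ehmt1 was next at 0.44 (0.016 to 0.88), and lowest were the replication clamp gene Pcna at 0.18 (-0.40 to 0.77) and Ehmt2 at 0.23 (-0.022 to 0.48).

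Of the genes listed as readers of methylated CpG, 6 of 7 exceeded 1.4-fold, 3 of 7 with TMM (all genes 42.8% and 17.6%), and the median log2 ratio was 0.78. Mbd6 was highest at 183 and 634 reads, 1.35 (1.11 to 1.60), followed by Mbd5 at 25 and 82 reads, 1.27 (0.61 to 1.98). Both are in the list by their methyl-CpG-binding-type domain but are not known to bind methylated DNA, so that the name of the list does not describe them, and the same holds for mammalian Mbd3, which was also above 1.4-fold and is named here after its value was seen. Lowest were Zbtb38 at 95 and 169 reads, 0.39 (0.020 to 0.77), and Mbd1 at 43 and 85 reads, 0.54 (-0.0023 to 1.11).

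Of the genes for oxidation and repair, 3 of 5 exceeded 1.4-fold under either scaling (all genes 42.8% and 17.6%), with a median of 0.97 by library totals. The glycosylase gene Smug1 was highest at 28 and 87 reads, 1.20 (0.57 to 1.87), and Cxxc5 was at 28 and 79 reads, 1.06 (0.42 to 1.73). The glycosylase genes Neil3, at 238 and 308 reads, -0.068 (-0.32 to 0.18), and Mbd4, at 369 and 607 reads, 0.28 (0.089 to 0.47), were lowest. In the supply of the methyl donor, 4 of 6 exceeded 1.4-fold, 1 of 6 with TMM (all genes 42.8% and 17.6%), and the median was 0.54. Mat2b was highest at 26 and 88 reads, 1.32 (0.67 to 2.01), and Mat2a, which encodes the enzyme that makes S-adenosylmethionine, was at 316 and 692 reads, 0.69 (0.50 to 0.89). Ahcy, whose product clears S-adenosylhomocysteine, was the gene under 1/1.4-fold, at 64 and 59 reads, -0.56 (-1.09 to -0.024), and Ahcyl1 was at 0.39 (-0.0028 to 0.80).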

How the data were processed

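RNA isolated by enChIP was measured in 1 library per group, grouped by the sample titles. The authors deposited raw read counts per Ensembl transcript, and the authors' RPM, the count scaled to the library total, equalled the RPM recomputed here up to rounding. The submitters' processing notes name cutadapt and the builds GRCm38 and mm10. The aligner, the annotation release and how reads matching several transcripts were handled are not given in the sources used here. The files list only transcripts with a read in at least 1 library. Rows were joined on the Ensembl ID, and counts were summed by gene symbol.

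Log2 ratios used library totals without a pseudocount. Genes entered comparisons from 100 reads upwards, summed over both libraries, and transcripts within a gene from 20. Differences between genes or transcripts are ratios of ratios with exact conditional intervals. A count of 0 allows up to 3 reads, or 0.416 RPM (3xFNLDD) and 0.307 RPM (3xFN-Tel-TAL). Python 3.11.15, scipy 1.17.1, pandas 2.3.3, R 4.3.3, edgeR 4.0.16 and DESeq2 1.42.0 were used, the last 2 for scaling factors only. edgeR's quasi-likelihood test could not be run, since 1 library per group leaves no residual degrees of freedom. In simulated Poisson counts for 3xFN-Tel-TAL against 3xFNLDD, 95.1% of the 95% intervals of 5857 genes held the true ratio. These counts follow the model that the interval assumes, so the share checks the computation and not the coverage in these libraries. Types, lengths, positions and sequences are those of GENCODE M1 on NCBIM37, matched by transcript ID, which holds 25 of the 27 transcripts. No position was converted between builds.

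Named genes are the 7 members, the 2 highest and 2 lowest of each list of other genes, the nearest gene to each member, overlapping genes, Terc and markers of cell types. The members and lists were chosen with earlier results of these data known. Alternatives were TMM, DESeq2 size factors, totals without transcripts above 1% of a library, other minimum counts, a pseudocount of 1, a ratio of 2, the lower bound in place of the ratio, other sets of transcripts, and each gene left out. The ratio of read counts was added after the data were seen.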

Additional observations from a re-analysis of the deposited data

How the results depend on the processing

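No paired analysis was possible because each group has a single library, which also leaves none to omit in turn. The 2 members above 1.4-fold became 0 with TMM scaling, with DESeq2 size factors, with totals without transcripts above 1%, with a ratio of 2 and with the lower 95% bound, and 1 with at least 200 reads, whereas they became 3 with the most-read transcript only and 5 with the ratio of read counts, an alternative chosen after seeing the data. The 14 other DNA methylation genes above 1.4-fold became 7 with TMM, 8 with DESeq2 size factors, 7 with totals without transcripts above 1%, 24 of 49 with no minimum 6 with a ratio of 2 and 26 with the ratio of read counts. The difference of Tet minus Dnmt was -0.36 without Tet3, and that of maintenance minus de novo was -0.50 with the most-read transcript only. Of 42 recomputed log2 ratios of single members, 32 stayed within the 95% interval of the reported value, and the 10 others were 9 lower values under another scaling and the most-read transcript of Dnmt3a (1.03). Uhrf1, Dnmt3b and Tet3 kept a positive sign under every alternative run, whereas Dnmt1 was negative under all 3 other scalings (-0.16 to -0.050) and Dnmt3a with TMM (-0.0028). With 71 to 979 reads per member, the 95% intervals were between 0.38 and 1.43 wide on the log2 scale.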
